A study of Mus musculus with 11 samples.

Results

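The cells described are the 86 wells of a mouse testis single-cell series that stood highest for 6 transcripts of late spermatocytes: Tcp10c, Tcp10a, Prdx6b, 4933402N22Rik, Adam3 and Cmtm2a. They were chosen by these measured levels and are 86 of 861 wells with at least 10000 unique molecular identifiers (UMIs, random tags that mark original mRNA molecules), out of 1920 wells in all. Within each mouse the wells were ranked by a score, the mean over the 6 genes of ln(1 + UMIs per 10000), and the top 10% were taken: 35 of 349 wells in mouse 1, 16 of 158 in mouse 2 and 35 of 354 in mouse 3. The ranking used these 6 genes in these wells, so their levels are given as a description and without a test.

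All 3 animals were adult, untreated mice carrying a Dazl-GFP reporter, in which green fluorescent protein marks cells that express the germ cell gene Dazl. Live GFP-positive testis cells were sorted singly into plates and read by SORT-Seq, which counts the ends of polyadenylated transcripts. Mouse 1 was read by CEL-Seq1 (8 libraries), mouse 2 by CEL-Seq2 (1 library) and mouse 3 by CEL-Seq2 (2 libraries). CEL-Seq1 was used in mouse 1 alone, so mouse and protocol cannot be told apart. The sort kept GFP-positive cells, so cells without the reporter were not sampled. The labels give no strain or age beyond adult, and the mouse is the replicate (n = 3).

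Pachytene is the long stage of meiotic prophase at which homologous chromosomes are joined along their length, and male cells silence most of the X and Y chromosomes in it. Late pachytene spermatocytes already transcribe many genes whose products are needed after meiosis, in the acrosome, the tail and the sperm surface. ADAM3 is a sperm surface protein required for sperm to pass into the oviduct, and it depends on a chain of chaperones and other ADAM proteins during maturation. Cmtm2a belongs to a family of small membrane proteins, Prdx6b is an intronless relative of the peroxidase gene Prdx6, and the Tcp10 genes lie in the t complex of chromosome 17.

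The 3 Tcp10 genes are near copies of each other, which bears on how their counts may be read. The stretches shown lie upstream of their transcription starts and are aligned to each other (RefSeq, GRCm38.p6, plus strand), Tcp10a at chr17:7324417-7324645 and Tcp10c at chr17:13354343-13354571. A capital marks the position at which the copies are not alike.
Tcp10a: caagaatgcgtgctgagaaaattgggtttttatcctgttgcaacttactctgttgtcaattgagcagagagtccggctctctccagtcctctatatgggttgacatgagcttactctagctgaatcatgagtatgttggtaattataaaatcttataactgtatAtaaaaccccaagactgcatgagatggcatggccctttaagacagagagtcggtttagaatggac
Tcp10c: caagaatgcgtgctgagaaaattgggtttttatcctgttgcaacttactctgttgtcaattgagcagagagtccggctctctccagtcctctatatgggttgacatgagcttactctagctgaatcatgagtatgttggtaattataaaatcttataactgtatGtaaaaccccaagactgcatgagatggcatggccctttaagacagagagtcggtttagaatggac
The copies are alike at 228 of 229 positions, and Tcp10b (chr17:13060882-13061110) reads as Tcp10c does throughout. The last 300 bases of their best-matching GENCODE transcripts, the part that a 3' assay reads, are 98.7% to 99.3% alike. Reads could therefore be split among the copies in a way the counts do not show, and Tcp10b was left out of the tests with the 6 score genes. Each copy holds 1 MYB word (the letters CAACGG on either strand, or likewise CAACTG, or else TAACGG, or finally TAACTG) in this stretch. Such a word stood in 23.7% of all 27025 upstream windows of 250 bases. Of the 7123 windows of genes tested against mid pachytene wells (defined below), 22.7% held one. The share was 26.5% for genes higher in the members than in the mid pachytene wells and 23.4% for genes lower.

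Of the 6 score genes, 3 were abundant in the members of every mouse and the other 3 in mouse 1 only. Cmtm2a was the most abundant, at 547, 608 and 812 CPM (the gene's UMIs per 1000000 summed UMIs of the members) in mice 1, 2 and 3. Prdx6b stood at 332, 365 and 401 CPM and Adam3 at 205, 188 and 274 CPM. Every one of the 86 members held at least 1 UMI of Cmtm2a, Prdx6b and Adam3. In the other kept wells Cmtm2a was seen in 435 of 775, Prdx6b in 348 and Adam3 in 272, with medians of 26929 UMIs per well against 95775 in the members. After every well was thinned to 10000 UMIs, Adam3 was seen in 82.6% of members and 16.8% of other wells.

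Tcp10c stood at 336 CPM in the members of mouse 1 and at 9.71 and 7.20 CPM in those of mice 2 and 3. Tcp10a gave 1197 UMIs in the members of mouse 1, 13 in those of mouse 2 and 33 in those of mouse 3. 4933402N22Rik gave 1023 UMIs in the members of mouse 1 and none in those of the other mice, with 1 UMI each over all wells of mice 2 and 3. A count of 0 allows up to 3 UMIs, or 2.91 CPM in mouse 2 and 0.697 CPM in mouse 3, counting error only. In mice 2 and 3 the members were thus high for Cmtm2a, Prdx6b and Adam3, and Tcp10c was seen in 7 of 16 and 14 of 35 of them, or in 5 and 0 after thinning to 10000 UMIs. In the shallower other wells of these mice Tcp10c was seen in 1 of 142 and 18 of 319, or in 1 and 3 after thinning. Tcp10a was seen in 10 of 16 and 20 of 35 members, and in 9 of 142 and 19 of 319 other wells. After thinning it was seen in 2 and 7 of these members and in 3 and 3 of the other wells. The t complex gene Dynlt1b, chosen after its values were seen, encodes a dynein light chain and likewise differed between mice. It stood at 1036 CPM in the members of mouse 1 against 0.971 and 0.465 CPM in those of mice 2 and 3. In the 35 members of mouse 1 the levels of the Tcp10 copies went together across wells (Pearson r of 0.879 to 0.946, a description of wells that share libraries and reads).

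**Figure D1:**
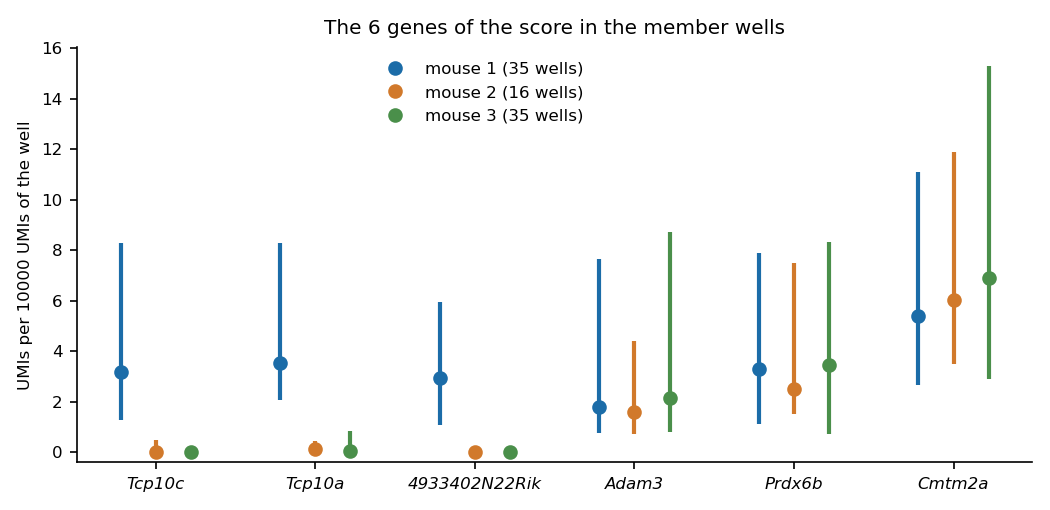
UMIs per 10000 UMIs of the well for the 6 score genes in the member wells of each mouse, the point being the median and the line the range over wells. Tcp10c, Tcp10a and 4933402N22Rik are high in mouse 1 alone, whereas the medians of Cmtm2a are 5.38, 6.01 and 6.91 in the 3 mice.

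The border of the group was soft. The last member and the first well outside it scored 1.17 and 1.14 in mouse 1, 0.560 and 0.552 in mouse 2, and 0.644 and 0.639 in mouse 3. Leaving Tcp10c and Tcp10a out of the score chose 85 of the same 86 wells, and Prdx6b, Adam3 and Cmtm2a alone chose 83. Scoring after thinning to 10000 UMIs chose 69 of the 86. Members had medians of 93652, 50245 and 121807 UMIs per well in the 3 mice, against 29191, 21775.5 and 26672 in the other wells. Of the members of mouse 3, 27 came from the 220 kept wells of the gate-sorted library and 8 from the 134 of the index-sorted library.

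Markers of other cells were scarce but for a few wells. The summed level of 8 Sertoli markers was 0.971 to 6.97 CPM per mouse in the members and 23.2 to 53.5 CPM in the other wells, with Amh and Rhox5 at 0 in the members. The 6 Leydig markers summed to 7.67 to 11.1 CPM in the members, with Cyp11a1 and Hsd3b1 at 0, and to 6.29 to 9.60 CPM in the other wells. The 6 peritubular and endothelial markers summed to 7.77 to 9.0 CPM, with Des and Myh11 at 0, and to 6.79 to 8.55 CPM in the other wells. Members were thus about as high as the other wells for both lists. The 4 macrophage markers in the table summed to 0.971 to 1.86 CPM, with Cd74 at 0, against 2.20 to 4.16 CPM, and both red cell genes in the table were at 0. The 12 round spermatid markers summed to 25.8, 112 and 41.6 CPM in the members of mice 1, 2 and 3, and to 25.1, 39.8 and 40.9 CPM in the other wells. The 10 elongating spermatid markers summed to 35.7, 116 and 62.3 CPM in the members and to 40.9, 353 and 124 CPM in the other wells.

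A few members stood apart by the X chromosome or by spermatid transcripts. Among them, 4 had an X share (UMIs of X-linked genes over UMIs of autosomal genes) of more than 1%, against a median of 0.126% over the 86. The first, in mouse 2, had an X share of 1.20% with 13 UMIs of Acrv1 and 19 of Spaca1, both acrosome genes of round spermatids, and the highest score of its mouse. Another, in mouse 1, had an X share of 1.03%, 4 UMIs of Acrv1, 7 of Spaca1, 53 of Ccna1 and the highest score of its mouse. The other 2 were shallow, with 17412 and 11830 UMIs, X shares of 2.26% and 1.16%, and no UMI of the round spermatid list. Per 10000 UMIs they held 4.59 and 5.92 of undifferentiated spermatogonia markers and 17.8 and 20.3 of differentiating ones, the highest of the 86. The differentiating list includes Dmrtb1, which was higher in the members as a whole (below), and its part in the sums of these 2 wells is not given. Their pachytene markers stood at 33.9, the lowest of the 86, and 63.4 per 10000. Their markers thus go against the name of late spermatocytes. A well of mouse 3 had an X share of 0.141% but 11 UMIs each of Acrv1 and Spaca1. At low levels Spaca1 was not confined to such wells. It was seen in 13 of 86 members and in 44 of 83 wells high for the early pachytene genes Gml and Hemt1, with at most 4 UMIs in the latter. Acrv1 was seen in 1 of those 83. A further well of mouse 1, with 63910 UMIs and none of Acrv1 or Spaca1, held 7.51 UMIs of elongating spermatid markers per 10000, against 16.7 in the first well of mouse 2. The gene tests and the shares below were run again without the 4 wells of high X share, but the counts of wells with a UMI and the groups of rising score were not.

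**Figure D2:**
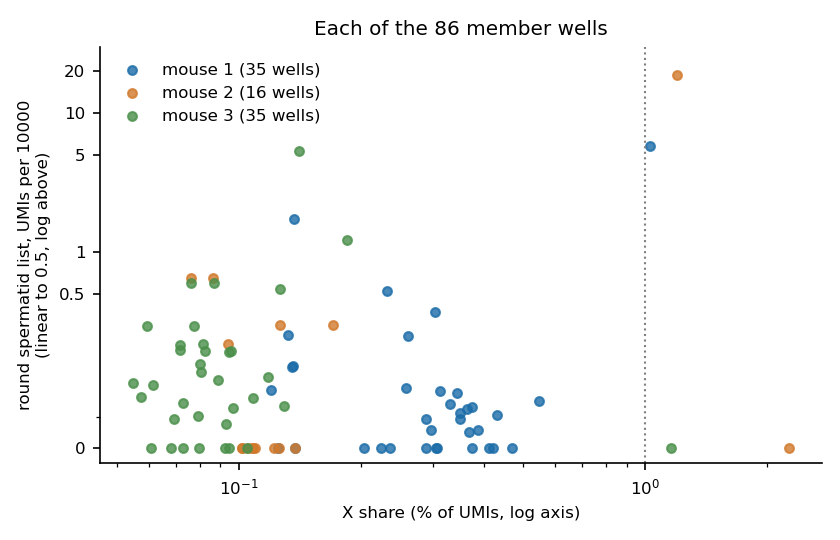
Each of the 86 member wells by its X chromosome share (horizontal, log axis) and its summed round spermatid markers per 10000 UMIs (vertical, linear to 0.5 and log above). Most wells lie at the lower left, and 4 lie to the right of the dotted line at 1%.

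The sex chromosomes gave few UMIs in the members. The X share, as UMIs of X-linked genes over UMIs of autosomal genes, was 0.328%, 0.195% and 0.0898% in mice 1, 2 and 3. In the other kept wells it was 1.25%, 1.21% and 0.989%. The groups did not overlap, and the share was 6.37-fold lower (log2 ratio -2.67 ± 0.77, SD, n = 3; lower in 3 of 3 mice, exact permutation test within mice, p = 0.25, the smallest that 3 mice can give). Y-linked UMIs were lower still, with a log2 ratio of -3.28 ± 0.52 (SD, n = 3, exact permutation p = 0.25). Without the 4 wells of high X share these ratios were -3.00 and -3.91. Those wells were removed for their X share and from the members only, so a lower X ratio was bound to follow. Of 358 X-linked genes tested gene by gene, 329 were lower in the members and 4 were higher. Those 4, chosen after their values were seen, were Gab3, Gm4984, Slitrk2 and Tsga8, of which Gab3 and Slitrk2 were not called without the mouse block (edgeR adjusted p = 0.52 and 0.40). Tsga8, a testis-specific gene, stood at 26.7, 38.8 and 23.7 CPM against 13.1, 9.06 and 12.7 CPM.

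Against mid pachytene cells the X chromosome did not separate the members. The mid pachytene wells were the top 10% of each mouse by the mean of Aym1 and Slc47a2 on the same scale, without the members, and numbered 26, 15 and 27. Of the 86 top wells by that score, 18 were members and were kept as members. The X share of the mid wells was 0.379%, 0.142% and 0.104%, and the log2 ratio of members to mid wells was 0.02 ± 0.39 (SD, n = 3, lower in 2 of 3 mice, exact permutation p = 1). Without the 4 wells of high X share it was -0.31 ± 0.09 (SD, n = 3), lower in 3 of 3 mice. These members were removed for that very share, and no mid well was. A fall of the ratio was therefore bound to follow and shows no difference from the mid wells. The Y share went from a log2 ratio of 0.20 ± 0.39 to one of -0.43 ± 0.22 (SD, n = 3) in the same way.

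Members gave more UMIs per spike-in UMI than the other wells, while the difference from the mid wells was small and not in every mouse under each setting. UMIs per UMI of the ERCC spike-ins, synthetic RNAs added at a fixed dose, were 431, 136 and 144 in the members, 354, 129 and 119 in the mid wells and 180, 56.7 and 46.0 in the other wells of mice 1, 2 and 3. The log2 ratio was 1.39 ± 0.22 against the other wells and 0.21 ± 0.12 against the mid wells (SD, n = 3, higher in 3 of 3 mice, exact permutation p = 0.25 for each). Against the mid wells, 2 of 3 mice were higher as a mean over wells (0.23), with the top 5% of wells (0.11) and with mouse 3 by its index-sorted library alone (0.11). Mitochondrial transcripts made up 2.39%, 6.51% and 6.23% of UMIs in the members, 3.05%, 8.95% and 7.23% in the mid wells and 4.51%, 11.1% and 9.97% in the other wells.

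The order of the wells by score shows where the members sit. When the wells of each mouse were put in 10 groups of rising score, the X share was below 0.9% by group 7 and below 0.4% by group 8 in each mouse. Ldhc, the lactate dehydrogenase of spermatocytes and sperm, was higher in the later groups, with 1926, 3696 and 4389 CPM in the members. Id4, an inhibitor of DNA-binding factors known from spermatogonial stem cells, was highest in group 8 in every mouse (386, 403 and 416 CPM) and stood at 263, 275 and 281 CPM in the members. Ccna1, the cyclin A of meiosis that spermatocytes need to divide, was highest in the members, at 35.7, 44.6 and 33.7 CPM against 13.9, 10.8 and 14.3 CPM in group 9. These levels are a description, as the 10 groups come from the score.

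**Figure D3:**
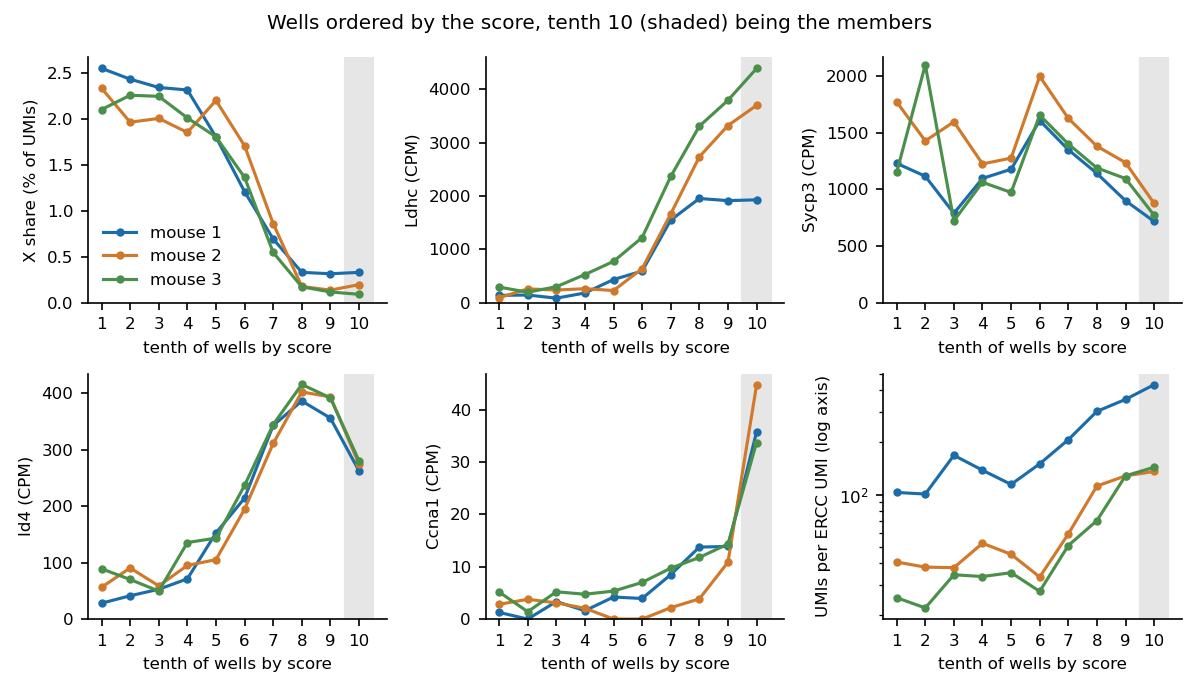
X share, Ldhc, Sycp3, Id4, Ccna1 and UMIs per ERCC UMI in 10 groups of wells of rising score, 1 line per mouse, with the members shaded. X share is low from group 8 onwards, Id4 is highest in group 8, and Ccna1 is highest in the members.

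Genes outside the score took no part in ranking the wells. Cmtm2b and Prdx6 may be exceptions, since they could share reads with their relatives Cmtm2a and Prdx6b in the score. Genes outside the score were tested on UMIs summed per mouse and class with edgeR, the mouse being a block. The 6 score genes were themselves chosen with results of these cells known, so the calls describe which transcripts go with the score and are not independent evidence of a cell type. Against all other kept wells, which include the mid pachytene wells and cells with spermatogonial transcripts, 8094 of 11880 genes passed an adjusted p of 0.05 (68.1%), 3610 of them higher in the members (30.4%) and 4484 lower (37.7%). Against the mid pachytene wells, 3534 of 9458 passed (37.4%), 1990 higher (21.0%) and 1544 lower (16.3%). The counts against mid wells depend on the mouse block: without it 294 genes were higher and 76 lower. Scaled by library size alone, 44.7% of the calls against mid wells were higher instead of 56.3%. With 2 residual degrees of freedom, the adjusted p-values lean on the spread shared across genes, so sizes and the 3 mice are given beside them. Counts in the gene lists below are to be read beside the above shares of all genes tested. No test of a list as a set is given.

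The genes that rose most were a mix of testis genes, several known only by a clone name. Called genes that were higher in all 3 mice made up 28.1% of those tested against the other wells and 19.6% of those tested against the mid wells, and lower ones 37.3% and 15.5%. Ordered by fold among those with at least 100 CPM in the members, the top 12 against the other wells were Hspb9, 1700020D05Rik, 1700039E15Rik, Gm7444, Arsa, 1700051A21Rik, 1700123L14Rik, Nlrp14, Qrich2, Slc22a16, Lrrc63 and Cmtm2b. Hspb9 (chr11:100713850-100714575), a small heat shock protein of the testis, stood at 104, 152 and 109 CPM in the members, 13.5, 7.49 and 18.9 CPM in the mid wells and 7.49, 10.3 and 12.9 CPM in the other wells. The members of every mouse lay far above both groups, 12.9-fold above the other wells (log2 3.69 ± 0.14 SE, edgeR adjusted p = 2.5e-22) and 7.76-fold above the mid wells. 1700020D05Rik (chr19:5502767-5503787) was 12.6-fold and 8.54-fold higher. Hspb9 and 1700020D05Rik stood apart from the mid pachytene wells too, with log2 values of 2.96 ± 0.16 and 3.09 ± 0.17 (SE) against the mid wells.

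Arsa (chr15:89472476-89477425), the lysosomal enzyme arylsulfatase A, stood at 117, 124 and 171 CPM in the members and at 29.1, 27.0 and 44.5 CPM in the mid wells. Nlrp14, a germ cell member of the NLR family, stood at 202, 240 and 239 CPM against 45.7, 58.4 and 68.6 CPM. Slc22a16, a carnitine transporter of the testis, was 6.35-fold above the other wells. Qrich2, a protein of the sperm tail, differed strongly between mice, with 46.8 CPM in the members of mouse 1 and 337 and 420 CPM in those of mice 2 and 3, and its call was lost without the mouse block (edgeR adjusted p = 0.081).

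Of the 12 genes named by the same rule against the mid wells, 8 were already among those above, and the others were Rnaseh2a, Phf2, Ccdc30 and Ccdc38. Phf2, a histone demethylase, stood at 165, 254 and 248 CPM against 39.8, 65.9 and 70.1 CPM in the mid wells, a 3.94-fold difference. Rnaseh2a, the catalytic subunit of an enzyme that removes RNA from RNA:DNA hybrids, was 4.23-fold higher, and its call too was lost without the block (edgeR adjusted p = 0.11). Ccdc38 stood at 290, 299 and 335 CPM against 97.9, 74.9 and 100 CPM.

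**Figure D4:**
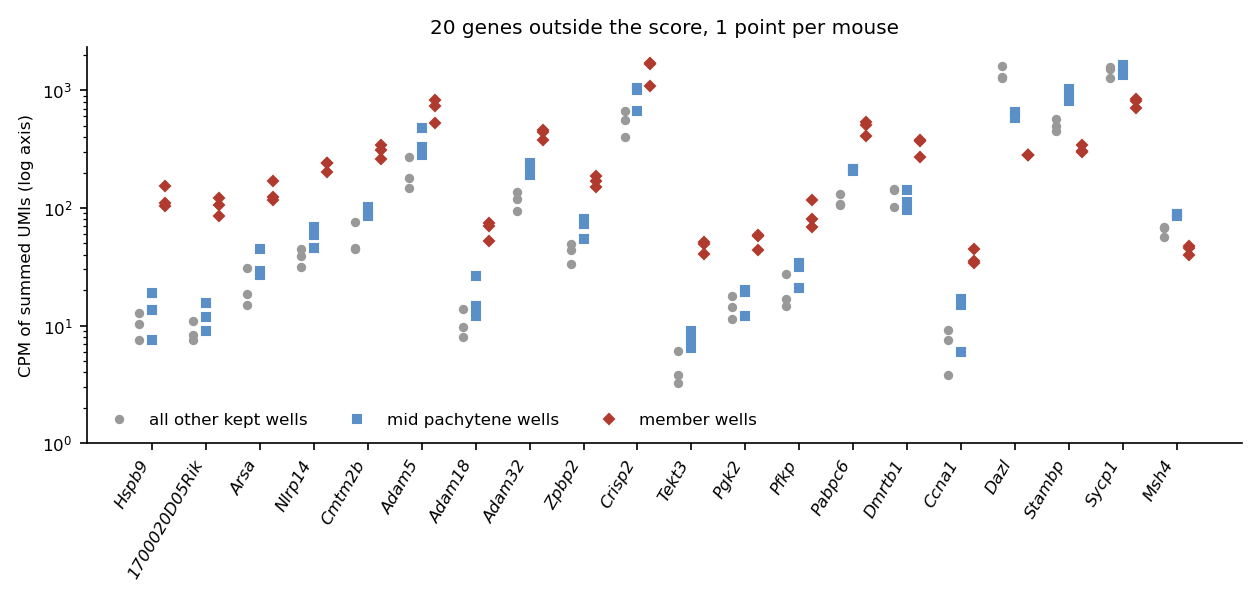
CPM (log axis) of 20 genes outside the score in the other kept wells (grey circles), the mid pachytene wells (blue squares) and the members (red diamonds), 1 point per mouse. The members of every mouse lie above both other groups for the first 16 genes and below both for the last 4; the 20 were picked for display after their values were seen.

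The sperm surface ADAM genes rose together with Adam3, which is left out here as a score gene. Of 19 listed ADAM genes, 6 had enough counts to be tested, and all 6 rose against the other wells and against the mid wells (medians of log2 2.02 and 1.03, against -0.10 and -0.01 over all genes tested). Adam18 stood at 51.9, 70.9 and 74.1 CPM in the members, 14.5, 11.99 and 26.4 CPM in the mid wells and 8.06, 9.81 and 13.8 CPM in the other wells. Adam32 stood at 379, 446 and 460 CPM in the members against 191, 228 and 239 CPM in the mid wells, and Adam5 at 523, 741 and 827 CPM against 282, 330 and 474 CPM. Neither pair of groups overlapped. How often this holds over all genes tested is not given, but 19.6% of them were called higher than in the mid wells in all 3 mice. Adam2, which forms the fertilin complex, was already high in the mid wells (535, 679 and 769 CPM) and rose only a little further, with 654, 766 and 883 CPM (log2 0.29 ± 0.05 SE, edgeR adjusted p = 4.3e-06). With wells thinned to 10000 UMIs, 2 of the 6 passed against the mid wells, Adam18 then being too low to test.

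The helpers of ADAM3 maturation did not move as a group. Of 7 tested against the other wells 3 rose and 2 fell, and against the mid wells 3 of 6 rose and 2 fell. Cmtm2b, the neighbour and paralogue of Cmtm2a that sperm need for ADAM3 processing, stood at 260, 310 and 343 CPM in the members and at 85.0, 92.9 and 102 CPM in the mid wells (log2 1.76 ± 0.08 SE, edgeR adjusted p = 3.5e-28). Clgn, the chaperone calmegin of the endoplasmic reticulum, rose against the other wells (log2 0.95 ± 0.14 SE), but against the mid wells its log2 of 0.14 turned to -0.04 after thinning. Tex101, a surface protein of germ cells, fell to 541, 602 and 563 CPM from 866, 1152 and 990 CPM in the mid wells. Without the block, or with thinned wells, 1 of this list rose and 1 fell against the mid wells. Because Cmtm2a and Cmtm2b are paralogues, and the counting is not described, reads shared between them cannot be sorted out here; the same holds for Prdx6b and Prdx6.

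Among the t complex genes, 5 of 7 tested rose and 1 fell against the other wells, and 4 of 6 rose and 1 fell against the mid wells. Over all genes tested, 30.4% rose and 37.7% fell against the other wells, and 21.0% and 16.3% against the mid wells. Tcp11, needed for sperm motility, rose to 309, 551 and 637 CPM from 192, 312 and 353 CPM in the mid wells. Tcte3, a dynein light chain gene with copies of its own, stood at 1236 CPM in the members of mouse 1 and at 127 and 93.7 CPM in those of mice 2 and 3. Its log2 of 0.26 against the mid wells was not a call without the mouse block (edgeR adjusted p = 0.96), and in mouse 2 it was lower in the members than in the mid wells (162 CPM). Without the block 2 of the list rose against the other wells and 1 against the mid wells.

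Genes of the acrosome, the enzyme-filled cap of the sperm head, rose in 12 of 14 tested cases against the other wells and in 8 of 13 against the mid wells, and none fell. Crisp2 stood at 1078, 1678 and 1706 CPM in the members and at 666, 1012 and 1050 CPM in the mid wells. Zpbp2, which binds the coat of the egg, stood at 168, 151 and 188 CPM against 81.2, 54.0 and 72.9 CPM (log2 1.32 ± 0.10 SE). Spink2, a protease inhibitor of the acrosome, and Spata16, needed to form it, rose likewise, with log2 values of 0.84 and 1.06. Of the round spermatid genes, Acrv1 was too low to test, and Spaca1 was not called and stood at 3.30, 21.4 and 4.18 CPM in the members. These counts were 12 and 8 also without the 4 wells of high X share, although Spaca1 then joined as a lower gene, 1 in all, against the other wells.

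Genes of the flagellum rose too, with 17 of 19 higher against the other wells, 14 of 18 against the mid wells and none lower. Tekt3, a filament protein of the sperm tail, stood at 40.5, 51.4 and 49.0 CPM in the members and at 6.46, 7.49 and 9.06 CPM in the mid wells (log2 2.61 ± 0.22 SE, edgeR adjusted p = 7.4e-16). Spag6, of the central pair of the axoneme, rose to 346, 418 and 423 CPM from 206, 222 and 251 CPM. Meig1, needed to assemble the tail, was abundant in both classes and rose by log2 0.38. Ift88 stood at 243 CPM in the members and 268 CPM in the mid wells on average and was not called. With thinned wells 8 of the list passed against the mid wells, and without the mouse block 5.

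Energy isozymes of the testis moved unevenly. Against the other wells 14 of 16 rose and 1 fell, and against the mid wells 7 of 14 rose and 3 fell. Pfkp, a phosphofructokinase, stood at 80.1, 68.9 and 117 CPM in the members and at 31.7, 20.98 and 33.9 CPM in the mid wells. Pgk2, the phosphoglycerate kinase that replaces its silenced X-linked relative, stood at 44.1, 59.2 and 57.4 CPM against 19.4, 11.99 and 20.1 CPM, and Hk1 and Pgam2 rose with it (log2 1.47 and 1.17). Cox7b2 and Cyct, respiratory proteins, and Slc25a31, the testis ADP/ATP carrier, fell slightly (log2 -0.18, -0.15 and -0.34), calls that none of the 3 kept without the block or with thinned wells. Gapdhs, the sperm glyceraldehyde phosphate dehydrogenase, stood at 1.5, 13.6 and 4.18 CPM in the members.

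Most genes of chromosome pairing were lower in the members than in the mid wells. Of 12 genes of the synaptonemal complex and cohesin tested, 10 fell against the mid wells and 2, Syce1 and Stag3, rose. Against the other wells 7 of 13 fell and 2 rose. The other wells include wells high for the early pachytene genes Gml and Hemt1. In those the list summed to 10138, 11820 and 10419 CPM, against 6085, 7547 and 6689 CPM in the mid wells of mice 1, 2 and 3. Sycp1, which joins the chromosome axes, stood at 835, 806 and 702 CPM in the members against 1478, 1632 and 1358 CPM. Sycp3, of the axes themselves, stood at 716, 876 and 771 CPM against 967, 1346 and 1138 CPM. Hormad1, which leaves the axes as chromosomes synapse, fell by log2 0.62. Without the mouse block 2 of the 10 passed, and with thinned wells 5.

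Recombination genes fell in 10 of 19 cases against the mid wells and rose in 2, and fell in 11 and rose in 3 against the other wells. Msh4, which stabilises crossover intermediates, stood at 45.6, 39.8 and 47.9 CPM in the members against 89.3, 85.4 and 89.5 CPM in the mid wells. Dmc1, the strand exchange protein of early prophase, was at 2.70, 8.74 and 5.35 CPM, below the mid wells (10.2, 13.5 and 12.2 CPM) and far below the other wells (75.6, 101 and 98.5 CPM). Spo11, which makes the DNA breaks that start recombination, and Psmc3ip, a partner of Dmc1, went the other way and rose against both groups (log2 0.27 and 0.21 against the mid wells). Without the block or with thinned wells only 1 lower gene of the list passed against the mid wells.

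By the same rule, the 8 named genes that fell against the mid wells were led by Stambp, a deubiquitinase, and Hemt1, which also serves as a marker of early pachytene wells. Stambp (chr6:83543211-83572729) stood at 341, 306 and 297 CPM in the members against 817, 1016 and 919 CPM in the mid wells (log2 -1.45 ± 0.06 SE, edgeR adjusted p = 8.3e-31). The other 6 were Smarcc1, Ptchd3, Rnf149, Parp12, Dazl and Atp5g2. Smarcc1, a subunit of the BAF chromatin remodeller, stood at 67.2, 79.6 and 48.3 CPM against 175, 151 and 124 CPM. Rnf149 missed the threshold once wells were thinned (edgeR adjusted p = 0.085). Dazl, the gene behind the reporter, stood at 284, 281 and 282 CPM in the members, 636, 649 and 578 CPM in the mid wells and 1299, 1608 and 1262 CPM in the other wells, the lowest of the 3 groups in every mouse.

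RNA-binding and translation genes moved both ways. Against the mid wells 5 of 15 rose and 5 fell, and against the other wells 10 of 16 rose and 4 fell. The testis poly(A)-binding protein genes Pabpc2 and Pabpc6 rose, with Pabpc6 at 410, 540 and 510 CPM against 206, 216 and 216 CPM in the mid wells. Without the block 2 rose and 1 fell against the mid wells. Cpeb1, which controls translation of synaptonemal complex transcripts, fell to 6.60, 16.5 and 9.06 CPM from 36.6, 40.5 and 29.9 CPM. In the piRNA pathway, which silences transposons and cuts transcripts in germ cells, 9 of 18 fell and 4 rose against the mid wells, while 10 rose and 1 fell against the other wells. Tdrd6, of the chromatoid body of spermatids, rose to 359, 490 and 486 CPM from 188, 265 and 229 CPM, whereas Piwil2 fell to 455, 490 and 639 CPM from 724, 1007 and 1052 CPM. Without the block none of the 9 passed.

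**Figure D5:**
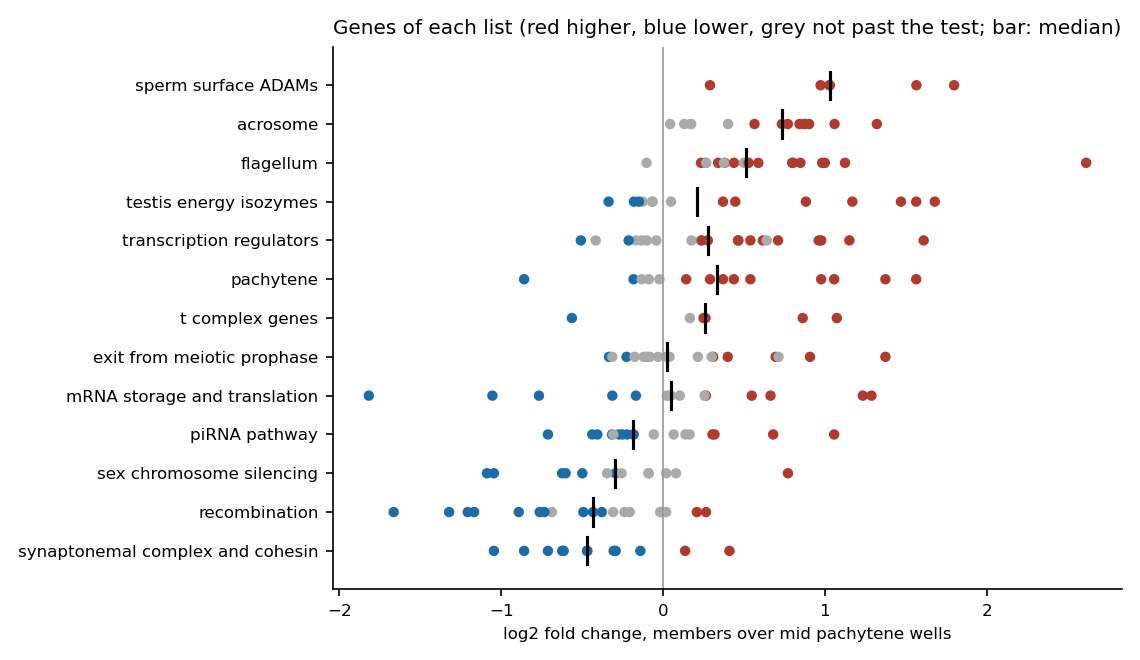
log2 fold change of members over mid pachytene wells for each tested gene of 13 lists, red where the gene passed as higher, blue as lower and grey where it did not pass, with a bar at the median. The 6 ADAM genes are all red, and the synaptonemal list has 10 blue and 2 red points.

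Regulators of transcription in spermatocytes and spermatids rose in 16 of 22 cases and fell in 5 against the other wells, and rose in 11 of 21 and fell in 2 against the mid wells. Ovol1, a zinc finger factor of pachytene exit, stood at 32.4, 24.3 and 30.2 CPM in the members against 6.99, 15.0 and 11.4 CPM in the mid wells. Zfp541, a chromatin factor of pachytene, stood at 149, 141 and 149 CPM against 98.5, 85.4 and 109 CPM. Crem, the factor that drives spermatid genes, and Rfx2, a factor of ciliary and spermatid genes, rose by log2 0.47 and 0.28, and Id4 fell by log2 0.51. Taf7l, X-linked, was called higher, but its 34.9 CPM in mouse 2 and 3.6 and 12.1 CPM in mice 1 and 3 include the wells of high X share, and it was not tested without them. Mybl1, the MYB factor of pachytene, stood at 53.8 CPM in the members and 59.4 CPM in the mid wells on average and was not called. Without the block 2 of the 11 passed, and with thinned wells 2.

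Genes for leaving meiotic prophase did not move as a list: 5 of 20 rose and 2 fell against the mid wells, near the 21.0% and 16.3% of all genes tested, with a median log2 of 0.02. The 5 were Ccna1, Aurkc, Plk1, Ttk and Aurka. Ccna1 rose most, with 35.7, 44.6 and 33.7 CPM against 15.1, 5.99 and 16.9 CPM (log2 1.37 ± 0.21 SE, edgeR adjusted p = 2.6e-07). It was seen in 71 of 86 members, 32 of 68 mid wells and 137 of 775 other wells, and in 23.3%, 13.2% and 5.42% of them after thinning. In mouse 1, 53 of its 119 UMIs in the members came from the well of high X share noted above; without the 4 such wells Ccna1 was still called (edgeR adjusted p = 0.00066), and Plk1 was not (edgeR adjusted p = 0.55). Cdk1 and Pkmyt1 fell, and Ccnb1 (28.8, 34.9 and 20.2 CPM against 26.4, 24.0 and 32.7 CPM) was not called, although it was among the lower genes without those 4 wells (edgeR adjusted p = 0.041). Without the block, and with thinned wells, where Ccna1, Aurkc and Plk1 were too low to test, none of the list passed. Against the other wells 7 of 21 rose and 9 fell, near the 30.4% and 37.7% of all genes tested.

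The genes that fell most against the other wells included X-linked and spermatogonial ones. Of the 8 named lower genes against the other wells, Hdac6, Rpl36a, Eif1ax, Scml2 and Rbbp7 are X-linked and Dmrt1, Mcm2 and Mif are autosomal. Dmrt1, which keeps spermatogonia from entering meiosis, stood at 2.10, 12.6 and 7.44 CPM in the members against 133, 248 and 222 CPM in the other wells. Scml2, a Polycomb-related protein of the male germline, was 23.8-fold lower. All 8 tested markers of undifferentiated spermatogonia fell (4 passed with thinned wells), as did 8 of 9 of differentiating ones, Kit and Stra8 among them. The ninth, Dmrtb1, known for guiding the exit from spermatogonial divisions, went the other way: it stood at 269, 369 and 375 CPM in the members, 95.2, 112 and 143 CPM in the mid wells and 103, 143 and 146 CPM in the other wells (log2 1.55 ± 0.08 SE against the mid wells, edgeR adjusted p = 6.7e-27).

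Smaller lists were mixed. Of 14 antioxidant genes tested, 5 rose and 7 fell against the other wells; Gpx4, an enzyme that also forms the sheath of sperm mitochondria, rose to 305, 767 and 876 CPM from 199, 480 and 528 CPM in the mid wells. Prdx6, the relative of Prdx6b, stood at 65.1, 54.4 and 61.4 CPM against 35.5, 39.0 and 32.7 CPM. Of 13 genes of sex chromosome silencing, 6 fell and 1 rose against the mid wells, Topbp1 falling by log2 0.60 and the histone methyltransferase gene Ehmt2 rising by log2 0.77, although Ehmt2 fell against the other wells. Without the block 3 of this list fell and none rose. Of 58 X-linked genes tested against the mid wells 3 (Hnrnph2, Taf7l and Tsga8) were higher and 6 lower, and Tsga8 was no longer called without the wells of high X share. The testis linker histone Hist1h1t averaged 3.63 CPM in the members and 4.74 CPM in the mid wells and was not called.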

How the data were processed

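The authors deposited UMI counts and read counts per gene and well, for 11 libraries of 3 mice; BWA 0.7.10 and mm10 are named in the submitters' processing notes, and the counting tool, annotation and use of strand are not given in the sources used here, so overlapping and antisense genes cannot be told apart. A deposited transcripts table was not used, since the wells of mouse 1 stand in another order in it. Per well, UMIs were counted without ERCC, mitochondrial, eGFP and Rn45s rows. Totals per mouse were 16682671, 5866174 and 18032562 UMIs. In mouse 1 at most 256 UMIs per gene and well can be told apart. Each well got 1 sorted cell, and doublets were not removed. Shared barcodes do not apply, since each well is its own column.

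The members and the gene lists were chosen with earlier results of these data known. UMIs were summed per mouse and class and tested with edgeR 4.0.16 (quasi-likelihood, TMM, filterByExpr, mouse as block, Benjamini-Hochberg over all genes tested, threshold 0.05) in R 4.3.3. The block was used because both sums come from the same animal, and they deviated together from their class means in each mouse (r of 0.731 to 0.957). With mouse as block, the edgeR p-values rest on how the difference between classes varied over 3 mice. They lean mostly on the spread shared across genes. That spread counted for 35.6 degrees of freedom against the other wells and 62.9 against the mid wells, beside 2 residual ones. Genes named are the 12 higher and 8 lower with the largest fold that passed in 3 of 3 mice at 100 CPM or more in the higher class; genes of the lists are named beside their counts, some of them chosen after their values were seen. Shares were compared by exact two-sided permutation tests within mice. The fit was tested on simulated data. Coordinates are GENCODE vM21 and upstream sequence RefSeq, both GRCm38. Alternatives were DESeq2 1.42.0, other scalings and filters, read counts, thinned wells, other scores and cut-offs, and each mouse left out.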

Additional observations from a re-analysis of the deposited data

How the results depend on the processing

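Against the other wells, 2367 genes were higher with wells thinned to 10000 UMIs instead of 3610, and 4 of 8 undifferentiated spermatogonia markers passed. Without the replicate block 2424 were higher and 3123 lower. Against the mid wells the higher and lower counts were 1990 and 1544 as reported, 825 and 507 by DESeq2, 294 and 76 without the replicate block, 974 and 688 on read counts, 484 and 287 on thinned wells, 815 and 660 with mouse 3 by its index-sorted library alone, and 1305 and 1353 with the top 20% of wells as members (49.1% of calls higher); without replicates 1, 2 or 3 in turn they ran from 1226 to 1765 and from 757 to 1726. The X share's log2 ratio to the other wells was -3.50 on read counts, and the Y share's was -2.59 with the top 5% of wells, -2.66 with at least 20000 UMIs per well, -4.07 on read counts and -3.91 without the 4 wells of high X share. UMIs per ERCC UMI gave 1.67 with at least 5000 UMIs per well and 0.92 with at least 20000. Against the mid wells the Y share gave 0.66 as a mean over wells and 0.81 with the top 5%, and UMIs per ERCC UMI 0.33 with the top 20% and 0.34 with wells scored after thinning; the cause of these shifts was not tested. Scaling by library size moved the median log2 over all genes from -0.10 to -0.27 against the other wells. None of the 40 named gene results reversed in any setting, and 3 lost their call in one each (Qrich2, Rnaseh2a and Rnf149). The scores after thinning and without the Tcp10 genes and 4933402N22Rik, the collision correction, the libraries of mouse 3 alone (for the gene tests) and the removal of 4 wells were chosen after seeing the data. Acrv1 was too low to test at this depth.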
